A study of Rattus norvegicus with 4 samples.

Results

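The 7 miRNAs described here are the red-cell-rich miRNAs that serum studies read as signs of haemolysis, taken as every listed arm of miR-486, miR-451, miR-144, miR-16 and miR-15b among 243 listed miRNAs. They are rno-miR-486, rno-miR-451-5p, rno-miR-451-3p, rno-miR-144-5p, rno-miR-144-3p, rno-miR-16-5p and rno-miR-15b-5p. The rule picks them by name and not by level. Small RNA was sequenced from exosomes (Exos, small vesicles that cells release) of rat serum in 4 libraries, 2 with the treatment label exercise and 2 with the label sedentary. The study used male SD rats, and the exercise was treadmill training for 4 weeks. The series text speaks of 20 rats in each group, but how many rats stand behind a library is not given, so p-values measure only the spread between these libraries. Titles and treatment labels may be at odds, because the letter E marks the sedentary libraries and the letter N the exercise ones. Every direction below follows the treatment label, and a library named by group and replicate is named by its label. The direction of each difference between the groups is therefore uncertain, while its size is not affected. Each miRNA that the paper lists as higher or lower in Exos of exercised rats, including miR-486, differed the other way under these labels. If the labels were exchanged, every size, error and p would stay and every direction would turn. The log2 fold change under the exercise label would then be 0.93 instead of -0.93 for miR-486, -0.37 instead of 0.37 for miR-451-5p, and -2.47 instead of 2.47 for miR-16-5p.

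A miRNA is a short RNA that pairs with messenger RNAs, mainly through its seed (bases 2 to 8), and lowers their output. miR-144 and miR-451 are cut from the same primary transcript, which is switched on strongly in developing red cells. miR-451 is unusual in that Ago2, not Dicer, cuts it from its hairpin. miR-486 is rich in red cells and in muscle, miR-16 is found in nearly all tissues and in red cells, and miR-15b lies beside miR-16 in the genome. When red cells break during blood collection their miRNAs enter serum, and the ratio of miR-451 to miR-23a-3p, a miRNA that red cells hold little of, is a common measure of this.

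The mature sequences in the deposited values are shown because seeds decide which of these miRNAs belong to one family and because their distance from other sequences decides whether reads could be shared. Capitals mark the seed, and T stands for U.
rno-miR-486: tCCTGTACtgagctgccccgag
rno-miR-451-5p: aAACCGTTaccattactgagtt
rno-miR-451-3p: aTGGTAATggttctcttgctgct
rno-miR-144-5p: gGATATCAtcatatactgtaagt
rno-miR-144-3p: tACAGTATagatgatgtact
rno-miR-16-5p: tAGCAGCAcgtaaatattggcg
rno-miR-15b-5p: tAGCAGCAcatcatggtttaca

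miR-16-5p and miR-15b-5p share the seed AGCAGCA, and none (0) of the other 5 shares its seed with any listed miRNA. Despite the common seed, miR-16-5p and miR-15b-5p lie 8 edits apart. The closest listed sequence to miR-486 (miR-187-3p) also lay 8 edits away, and the closest to miR-451-5p (miR-881-3p) lay 9 away, so neither had a near-copy among the listed miRNAs. The sequences of 6 of the 7 miRNAs were matched by name in the RefSeq table of the rat assembly GRCr8 and were identical there. In that assembly, Mir144 at chr10:63459397-63459479 and Mir451a at chr10:63459569-63459640, both on the plus strand, are separated by 89 bases. Mature miR-15b-5p (chr2:155555197-155555218) and miR-16-5p (chr2:155555343-155555364) lie 124 bases apart on the plus strand. The authors aligned reads to mRatBN7.2, so these positions belong to RefSeq and not to the deposited values. The hairpins of the miR-144 and miR-451 genes follow, with the listed arms in capitals, because the levels of both arms of each are set against each other below.
Mir451a: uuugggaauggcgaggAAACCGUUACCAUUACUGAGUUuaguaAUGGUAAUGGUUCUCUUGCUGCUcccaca
Mir144: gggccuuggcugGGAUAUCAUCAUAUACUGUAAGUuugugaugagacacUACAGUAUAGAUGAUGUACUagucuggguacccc

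Levels are given as reads in every 1000000 reads of a library (RPM) without scaling for length, and these miRNAs differ little in length (20 to 23 nt). Each value was a whole multiple of the smallest value of its library, which was taken as 1 read. On that basis each library held 20780612 to 22140315 reads in all and 649210 to 814439 reads on listed miRNAs. A value of 0 allows up to 3 reads, or 0.135 to 0.144 RPM. Intervals are 95% Wilson intervals and, like this limit, cover counting error only, since the values carry no molecular identifiers.

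These 7 miRNAs were far from equal in level. miR-486 was the most abundant listed miRNA in each of the 4 libraries, miR-451-5p ranked between 23 and 70, and miR-16-5p reached rank 82 at best. The other 4 (miR-451-3p, miR-144-5p, miR-144-3p and miR-15b-5p) were each above 0 in 1 library. Together the 7 took 25.6% (25.5% to 25.7%) and 28.9% (28.8% to 29.0%) of the listed reads in the libraries labelled sedentary. They took 18.3% (18.2% to 18.4%) and 16.4% (16.3% to 16.5%) in those labelled exercise. Nearly all of this was miR-486: the other 6 summed to 14.7 and 155 RPM in the libraries labelled sedentary and to 64.3 and 81.8 RPM in those labelled exercise. As markers of red cells, then, miR-486 was at the top of each list, while miR-144 was at or near 0 and miR-16-5p was low.

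**Figure D1:**
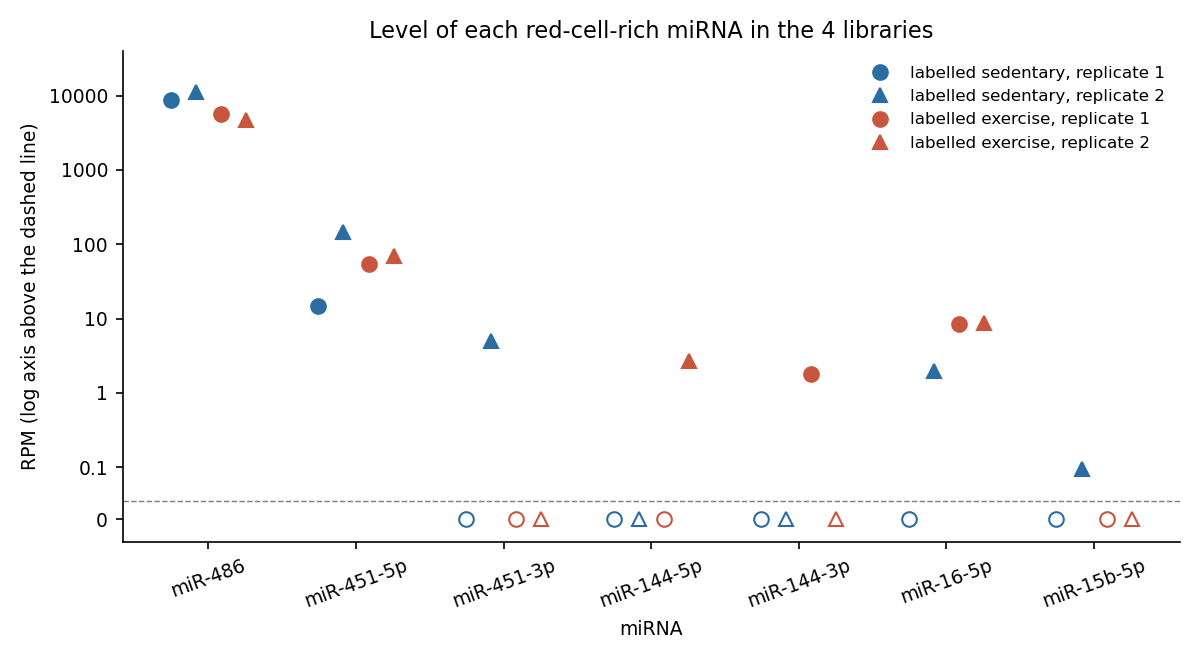
RPM of the 7 miRNAs in each library, on a log axis above the dashed line, with open symbols for values of 0. Blue marks libraries labelled sedentary and red those labelled exercise, circles replicate 1 and triangles replicate 2. miR-486 lies between 4724 and 11162 RPM, miR-451-5p spreads from 14.7 to 148 RPM, and the others stay under 10 RPM.

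miR-486 held 8754 RPM (interval 8715 to 8793) and 11162 RPM (11117 to 11207) in the libraries labelled sedentary. It held 5710 RPM (5678 to 5741) and 4724 RPM (4696 to 4753) in those labelled exercise. Both sedentary libraries thus lay above both exercise libraries, with means of 9958 ± 1703 and 5217 ± 697 RPM (SD, n = 2 each). It stood 1.95 and 2.18 times above the next most abundant miRNA in the libraries labelled sedentary, and 1.64 and 1.36 times above it in those labelled exercise. All listed miRNAs together summed to 36728 ± 3485 RPM (SD, n = 2) under the sedentary label and 30430 ± 1566 RPM (SD, n = 2) under the exercise label. That difference of 6298 RPM is the net of miRNAs that were higher and miRNAs that were lower. The difference of miR-486 alone equalled 75.3% of this net value. Without miR-486, the listed miRNAs summed to 26770 ± 1782 and 25213 ± 869 RPM (SD, n = 2 each). In bulk values such as these, fewer vesicles or cells that carry a miRNA and less of it in each cannot be told apart.

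The groups were compared with limma on log2(RPM + 1) over the 178 miRNAs above 0 in at least 2 libraries. A miRNA was called when its log2 fold change was over 1 in size and its Benjamini-Hochberg adjusted p lay under 0.05, and a positive fold change means higher under the exercise label. Fold changes on this scale understate differences of low values. Of all tested miRNAs, 7.87% were called (14, of which 9 were higher and 5 lower), and 0 of the 3 tested members (miR-486, miR-451-5p and miR-16-5p) were among them. Before adjustment, limma put 54 of the 178 under 0.05, miR-486 and miR-16-5p among them. The split of all calls turned to 5 higher and 9 lower with median-of-ratios scaling, and to 13 higher and 2 lower when values were taken as shares of the listed reads. The median log2 fold change of all tested miRNAs was 0.21 on the RPM scale and 0.44 on the scale of listed reads. The 4 members above 0 in a single library were not tested.

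The log2 fold change of miR-486 was -0.93 (standard error 0.19, 95% interval -1.40 to -0.45, adjusted p = 0.043 from limma). It passed the threshold on p, as 9.55% of all tested miRNAs did, but lay just within the threshold on fold. With median-of-ratios scaling it was called lower, at -1.03 (adjusted p = 0.016 from limma), and as a share of listed reads it was -0.66. Relative to the median of all tested miRNAs its difference was -1.14 on the RPM scale, -1.21 with median-of-ratios scaling and -1.10 as a share of listed reads. The adjusted p from limma rose to 0.091 without the filter on low values and to 0.17 with a single variance prior. With any 1 library left out the direction held in all 4 fits, from -1.10 to -0.75, and the adjusted p from limma lay between 0.069 and 0.45.

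miR-451-5p held 14.7 RPM (13.2 to 16.4; 323 reads) and 148 RPM (143 to 153; 3077 reads) in the libraries labelled sedentary. It held 54.0 RPM (51.0 to 57.2; 1187 reads) and 70.4 RPM (67.0 to 74.0; 1558 reads) in those labelled exercise. Both exercise libraries fell between the sedentary ones, so the groups overlapped, and the sedentary libraries differed from each other 10.1-fold against 1.30-fold for the exercise libraries. Among the 82 miRNAs with a mean of at least 10 RPM, 1 (miR-7a-5p) differed more between the libraries labelled sedentary than miR-451-5p did. On the log2(RPM + 1) scale, miR-451-5p differed by 3.25 there, against a median of 0.43 over those 82. For miR-486 the same difference was 0.35. The spread of miR-451-5p between these libraries was thus outside counting error, as was that of miR-486, but it was far larger.

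**Figure D2:**
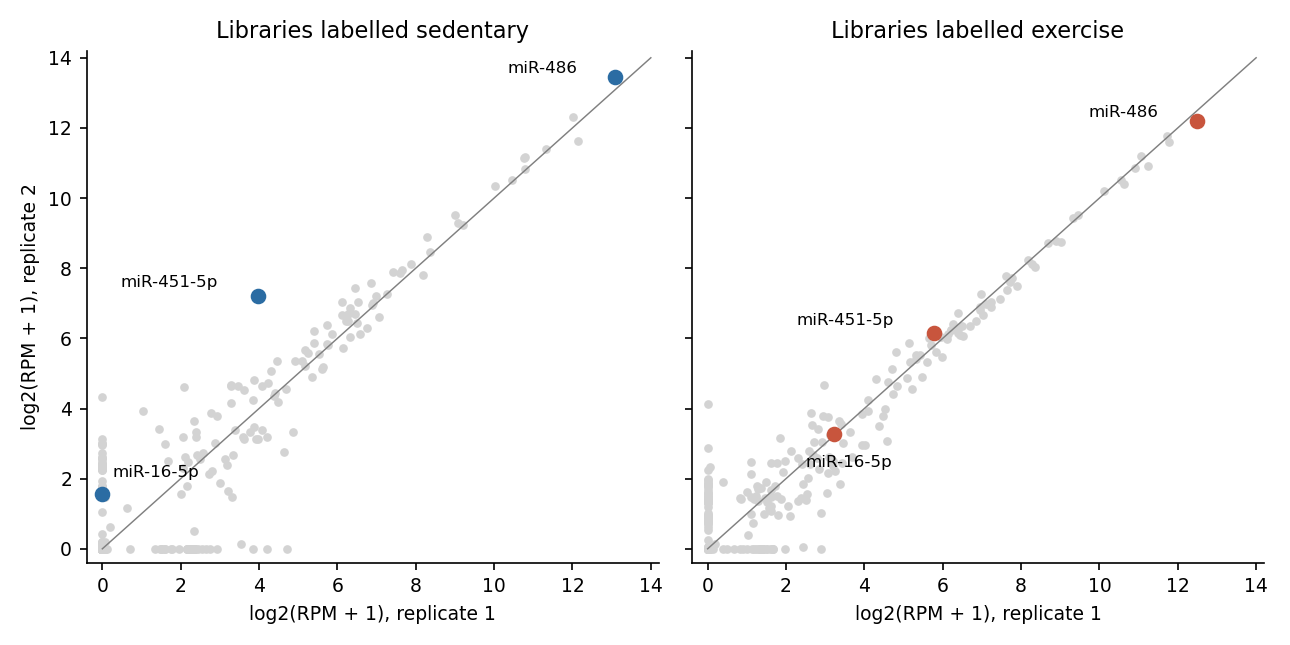
log2(RPM + 1) of all 243 listed miRNAs in replicate 1 against replicate 2, for the libraries labelled sedentary (left) and exercise (right). The line marks equal values. miR-486 lies near the line in both panels, while miR-451-5p lies far above it in the libraries labelled sedentary, at 14.7 against 148 RPM.

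The log2 fold change of miR-451-5p was 0.37 (standard error 0.99, adjusted p = 0.87 from limma). Its 95% interval, -2.07 to 2.82, holds sizeable differences in either direction. Without replicate 1 of the libraries labelled sedentary the value was -1.25 (adjusted p = 0.076 from limma), and without replicate 2 it was 2.00 (adjusted p = 0.069 from limma). Which sedentary library was kept therefore set the direction.

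The listed 3p arm of miR-451 was seen where miR-451-5p was highest, while the arms of its cluster partner were not. miR-451-3p, listed on the opposite side of the same hairpin, had 103 reads in sedentary replicate 2 and 0 reads elsewhere. In that library the 5p arm was 29.9 times the 3p arm. In the remaining libraries the 5p arm was at least 108-fold (sedentary replicate 1), 396-fold (exercise replicate 1) and 519-fold (exercise replicate 2) above a floor of 3 reads for the 3p arm. miR-144-3p had 40 reads in exercise replicate 1 and miR-144-5p had 60 reads in exercise replicate 2, and each had 0 reads in the other 3 libraries. In sedentary replicate 2, where miR-451-5p was highest, both miR-144 arms were at 0, so miR-451-5p was at least 1026-fold above the floor for either arm. Where a miR-144 arm was seen, miR-451-5p stood 29.7 times above miR-144-3p (exercise replicate 1) and 26.0 times above miR-144-5p (exercise replicate 2). With 1 library above 0 for each of these arms, they were left out of the limma fit, and no direction is read from their ratios.

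miR-16-5p had 0 reads and 41 reads (1.97 RPM, 1.45 to 2.68) in the libraries labelled sedentary. It had 185 reads (8.42 RPM, 7.29 to 9.72) and 192 reads (8.67 RPM, 7.53 to 9.99) in those labelled exercise. Both exercise libraries lay above both sedentary ones. The group means were 8.55 ± 0.179 RPM and 0.986 ± 1.40 RPM (SD, n = 2 each). Its log2 fold change was 2.47 (standard error 0.95, 95% interval 0.13 to 4.81), which limma did not call (adjusted p = 0.15). The value moved with the pseudocount, to 4.25 at 0.1 RPM and 0.76 at 10 RPM, and without sedentary replicate 1, the library at 0, it was 1.68. miR-15b-5p, of the same seed, had 2 reads in sedentary replicate 2 and 0 elsewhere, which is within the 3 reads that a count of 0 allows. Of the miR-15/16 family, by name of the 5p arm or by seed, these 2 were the only listed members. For 2 of the 3 tested members, miR-486 and miR-16-5p, the groups did not overlap, against 52.2% of all tested miRNAs, and they differed in opposite directions.

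**Figure D3:**
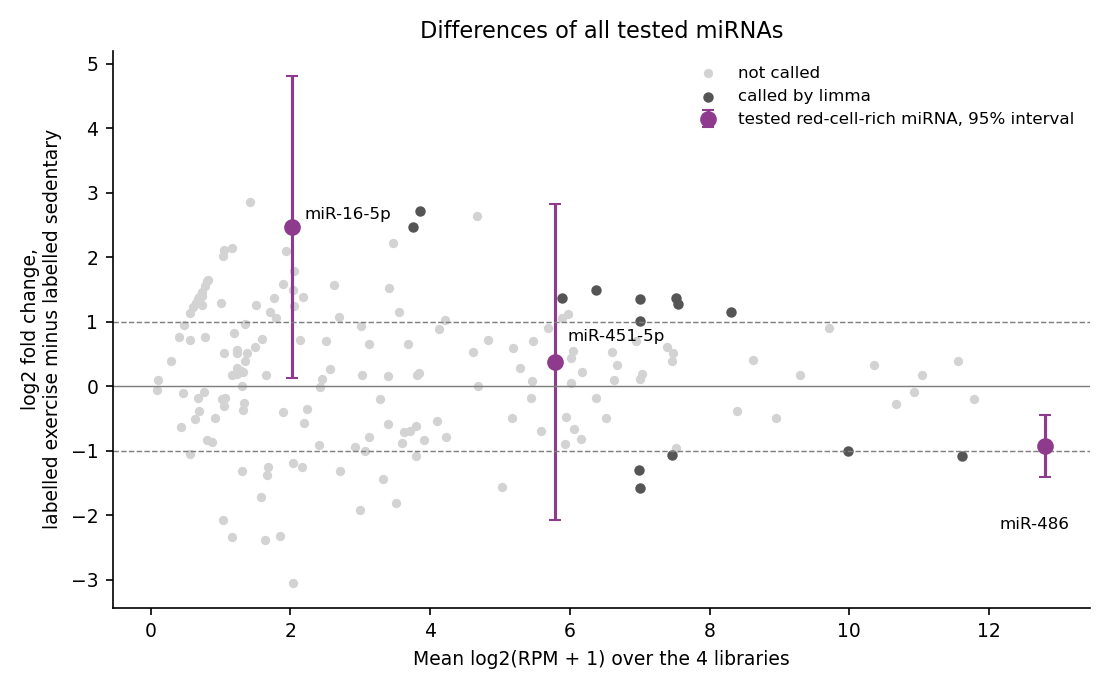
log2 fold change (label exercise minus label sedentary, positive is higher under the exercise label) against mean log2(RPM + 1) for the 178 tested miRNAs. Dark points are the 14 called by limma, dashed lines mark an absolute log2 fold change of 1, and purple points with 95% intervals are the 3 tested members. miR-486 sits at -0.93 with the narrowest interval of the 3, and that of miR-451-5p spans 0.

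A ratio of miRNAs within a library does not depend on the library total, so the members were also set against miR-451-5p. miR-486 exceeded miR-451-5p 597-fold in sedentary replicate 1 and 75.4-fold in sedentary replicate 2. It exceeded miR-451-5p 106-fold and 67.1-fold in the libraries labelled exercise. A single library, sedentary replicate 1, stood apart, and the other 3 lay within 67.1 to 106. On the log2 scale of RPM + 1, the ratio of miR-451-5p to miR-486 was -7.68 ± 2.05 under the sedentary label and -6.37 ± 0.46 under the exercise label (SD, n = 2 each). The difference of 1.30 became -0.15 without sedentary replicate 1.

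miR-451-5p stood 75.0 times above miR-16-5p in sedentary replicate 2 and at least 108-fold above its floor in sedentary replicate 1, where miR-16-5p was at 0. In the libraries labelled exercise it stood 6.42 and 8.11 times above miR-16-5p. Here both sedentary libraries lay above both exercise ones, whichever sedentary library is taken. The log2 ratio of RPM + 1 was 4.81 ± 1.19 under the sedentary label and 2.71 ± 0.24 under the exercise label (SD, n = 2 each). The difference of -2.09 was -2.93 without sedentary replicate 1 and -1.26 without sedentary replicate 2, and its size moved with the pseudocount (-3.85 at 0.1 RPM and -0.56 at 10 RPM). miR-486 relative to miR-16-5p was likewise higher in both libraries labelled sedentary, 5657-fold in replicate 2 and at least 64239-fold in replicate 1, against 678-fold and 545-fold.

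The haemolysis ratio of miR-451-5p to miR-23a-3p was 0.127 and 0.772 in the libraries labelled sedentary, and 0.251 and 0.335 in those labelled exercise. The sedentary values enclosed the exercise values. miR-23a-3p itself held 116 and 192 RPM under the sedentary label and 215 and 210 RPM under the exercise label (log2 fold change 0.51, standard error 0.26, adjusted p = 0.27 from limma). On the log2 scale of RPM + 1 the groups differed by -0.13 in this ratio, and by 1.13 without sedentary replicate 2. Over 22 ratios among these miRNAs and miR-23a-3p, many of them with an arm at 0 in 3 libraries, the smallest p from the exact two-sided permutation test was 0.33 (adjusted 0.81), the smallest that 2 libraries against 2 can give. When limma was fitted to all tested miRNAs relative to miR-451-5p, 0 of 177 (0%) were called, and 0 had an unadjusted p under 0.05. Each difference there carries the spread of miR-451-5p between the libraries labelled sedentary (14.7 and 148 RPM). The standard error of miR-486 was 1.98 in this fit, against 0.19 before, so the 0 calls say little about the other miRNAs. The adjusted p from limma was 1.00 for miR-486 and for miR-16-5p in that fit. Because miR-451-5p was subtracted from every miRNA, its own log2 fold change entered each difference with the sign turned. That fold change was -1.25 without sedentary replicate 1 and 2.00 without sedentary replicate 2. Calls in those fits are therefore not separate results for each miRNA.

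**Figure D4:**
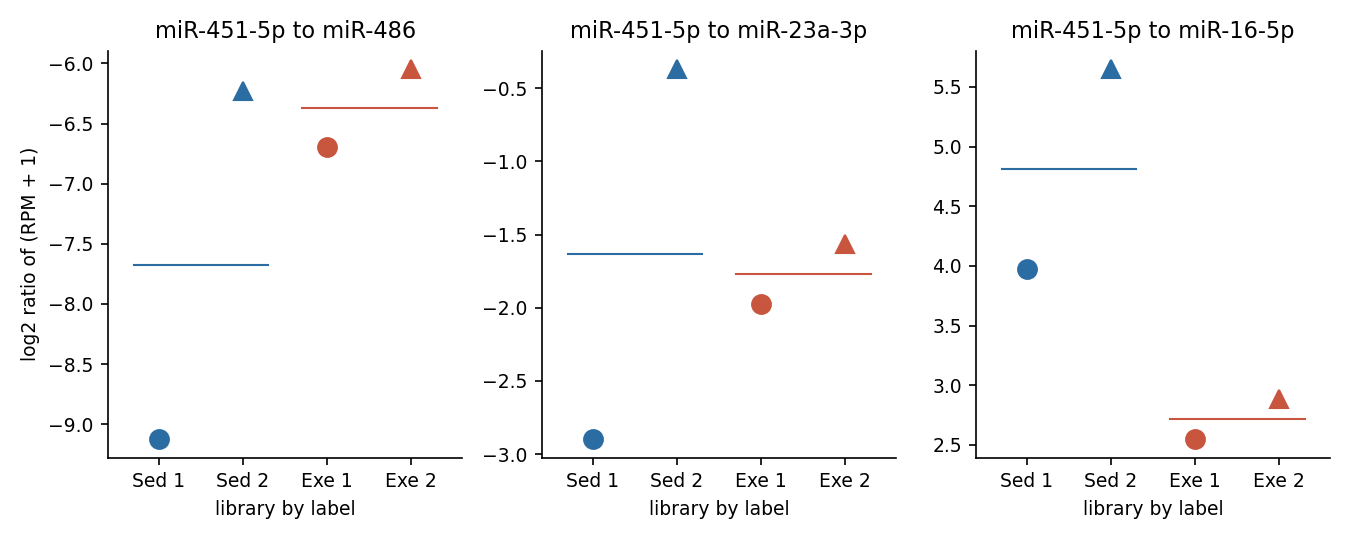
log2 ratio of (RPM + 1) of miR-451-5p to miR-486, miR-23a-3p and miR-16-5p in each library, by treatment label (Sed, sedentary; Exe, exercise); lines are group means. In the left and middle panels sedentary replicate 1 lies lowest, at 0.127 in the ratio to miR-23a-3p, and in the right panel both libraries labelled sedentary lie above both labelled exercise.

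By the distance between log2 values centred over the 4 libraries, among miRNAs with a mean of at least 100 RPM, the patterns closest to miR-486 were those of miR-28-3p (0.13), miR-151-3p (0.16) and miR-122-5p (0.32), against a median of 1.20 over 30 candidates. For miR-451-5p the closest of 31 was miR-1b at 1.61 (median 2.31), and miR-192-5p and miR-23a-3p followed at 1.74 and 1.82. For miR-16-5p it was miR-140-3p at 1.61 (median 2.44), followed by miR-30e-3p at 1.63 and miR-182 at 1.68. Among these candidates, miR-486 thus had near matches over the 4 libraries. The closest candidates to the other 2 lay farther away than the median candidate did from miR-486. Less abundant miRNAs were not candidates, and closer patterns may lie among them.

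Of the 7 listed arms of miR-22, miR-25, miR-92a, miR-93, miR-185 and miR-363, these being other red-cell-rich miRNAs, all 7 were tested and 0 were called, against 7.87% of all tested miRNAs, with a median log2 fold change of 0.32 against 0.21 for all tested miRNAs. Their sum was 1141 and 1379 RPM in the libraries labelled sedentary and 1663 and 1417 RPM in those labelled exercise. miR-25-3p, the most abundant, had 1047 and 1303 RPM against 1584 and 1346 RPM (log2 fold change 0.32, adjusted p = 0.29 from limma). miR-92a-3p had 79.7 and 65.3 RPM against 55.4 and 47.7 RPM (log2 fold change -0.48, adjusted p = 0.25 from limma). miR-185-5p had 9.40 and 9.38 RPM against 7.69 and 8.49 RPM (log2 fold change -0.19). miR-22-3p had 12 and 26 reads against 145 and 162 reads (log2 fold change 2.09, adjusted p = 0.16 from limma). The groups did not overlap for 5 of the 7, these 4 and miR-93-5p, against 52.2% of all tested miRNAs. miR-93-5p was at 0 in both libraries labelled sedentary, so the filter of 2 libraries above 0 fixed its outcome. The 52.2% holds other such miRNAs.

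Among markers of other sources of serum miRNA, 1 liver and 1 white-cell miRNA were called, against 7.87% of all tested miRNAs. Of the 3 listed liver arms, 2 were tested and 1 was called lower under the exercise label, miR-122-5p, while miR-192-5p had a log2 fold change of 0.09. The liver list summed to 1462 and 1601 against 811 and 821 RPM. Of the 7 white-cell arms, 1 was called higher, miR-150-5p, while miR-146a-5p had a log2 fold change of 0.08. miR-223-5p, not called, had 14.8 and 7.84 RPM against 6.14 and 3.88 RPM. The white-cell sum was 98.8 and 115 RPM against 197 and 204 RPM. With the labels exchanged, the directions of miR-122-5p and miR-150-5p would turn too. Both arms of miR-223 counted in the white-cell and in the platelet list. Of the 6 platelet arms 0 were called, and they summed to 76.3 to 79.7 RPM and 74.5 to 85.5 RPM. The groups did not overlap for 1 of 2 tested liver, 4 of 7 white-cell and 3 of 6 platelet arms, against 52.2% of all tested miRNAs. Some of these arms were at 0 in both libraries labelled sedentary, so the filter fixed that outcome. Of the 5 muscle arms, 4 were tested and 0 called, with sums of 371 and 432 against 497 and 452 RPM and a median log2 fold change of -0.20. Of the 2 most abundant, miR-1-3p had 327 and 355 against 473 and 435 RPM, and miR-206-3p had 41.6 and 72.9 against 21.9 and 14.8 RPM (log2 fold change -1.56, adjusted p = 0.074 from limma). The groups did not overlap for these 2 of the 4, against 52.2% of all tested miRNAs. miR-133a-3p, a defining muscle miRNA, had 1 read in 1 library and 0 elsewhere. The part of these sources in the values of miR-486, miR-451-5p and miR-16-5p was not tested.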

How the data were processed

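The 4 small RNA libraries of serum Exos were grouped by treatment label (2 and 2). The authors trimmed reads with cutadapt, kept short reads, aligned them to mRatBN7.2 with an aligner the labels name Bowtie, counted them on miRBase miRNAs with featureCounts and deposited 1 value per miRNA and library, which they name TPM. As deposited, the values behave as RPM of a library total that exceeded the reads on listed miRNAs, and which reads that total holds is not given in the sources used here. Reads were derived by dividing by the smallest value of each library; no value departed from a whole number by over 0.01 reads. These reads served for depth, intervals and floors (3 reads). Too few low values were present to meet the condition set for a count test, so none was run.

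limma 3.58.1 (R 4.3.3) was fitted to log2(RPM + 1) with a trend of the variance prior on mean level, and to the same values minus miR-451-5p. Ratios were tested with exact permutation tests (scipy 1.17.1, Python 3.11.15). Thresholds followed the study, and the fit was tested on simulated data. Named miRNAs are the members, miR-23a-3p, up to 4 of each marker list by level, and the 3 nearest by pattern and by sequence; miR-7a-5p, miR-93-5p and miR-133a-3p were named after their values were seen. The members and lists were chosen with earlier results of these data known. Alternatives covered pseudocount, filter, scaling, variance prior, replicate block and leaving out each library.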

Additional observations from a re-analysis of the deposited data

How the results depend on the processing

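Unless the setting itself shows why a value changed, the cause was not tested. The whole table gave 14 calls. The number called was 3 without the filter, which adds miRNAs to the adjustment, 0 with a single variance prior (44 at an unadjusted p and the same fold threshold, limma), 39 at an unadjusted p, and 0 to 11 with 1 library left out; it was 0 without either library labelled sedentary (44 and 46 at an unadjusted p and the same fold threshold, limma). A fit on 3 libraries assumes that the lone library of its group varies like the other group. Relative to miR-451-5p the count was 0 over all libraries and 0 to 84 with 1 left out.

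miR-486 became called with median-of-ratios scaling (-1.03) and kept its direction, uncalled, under the other 12 alternatives. Its adjusted p from limma was over 0.05 at a pseudocount of 0.1 (0.068), and in the fits named in the report. miR-16-5p kept its direction, uncalled, under 12 alternatives; with a mean of at least 10 RPM it was not tested. miR-451-5p ranged from -1.25 to 2.00 with 1 library left out and was not called under its 13 alternatives. The ratio of miR-451-5p to miR-486 ranged from -0.15 to 2.75, and that to miR-23a-3p from -1.40 to 1.13, with 1 library left out. Those of miR-451-5p and of miR-486 to miR-16-5p did not change sign.

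The labels do not say that replicate numbers pair the libraries. The deviations of same-numbered libraries had a correlation of -0.15, which cannot show how the libraries were prepared. The replicate block gave 18 calls over the whole table and called no member; pairing the libraries crosswise, a choice made after the data were seen, gave 18 too. With 2 libraries a group, exact tests could not pass 0.05, and depth limits miR-144, miR-451-3p, miR-16-5p and miR-15b-5p, which had at most 192 reads in any library.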
